A study of Mus musculus with 4 samples.

Results

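The genes described here are the classical MHC class I genes and the part of the proteasome that serves them. The 10 members were chosen by name from the 32285 genes of the count matrix and were H2-K1, H2-D1, B2m, Tap1, Tap2, Tapbp, Psmb8, Psmb9, Psmb10 and Nlrc5. All 10 were measured in 33368 cells of 17 cell types named by the authors. Single-cell RNA sequencing was performed on live CD45+ cells sorted from melanomas in Rag2-/- mice, which make no T or B cells of their own. All mice carried tumours of the YUMM1.7 line, a mouse melanoma line with an activating Braf allele and without Cdkn2a that was made to express ovalbumin. OT-1 T cells, CD8+ T cells with a receptor for ovalbumin peptide held by H2-K1, were transferred into all mice on day 7, and tumours were taken on day 10, 72 h later. NTT was a therapy-naive clone (3A6) and RTT a clone resistant to targeted therapy (2B12). RTT_ROSA26 was the resistant line with a guide against the Rosa26 locus as a control, and RTT_PTGS12KO the resistant line with Ptgs1 and Ptgs2, the cyclooxygenase genes, knocked out. The edits were in the injected cancer cells and not in the host or transferred immune cells, so Ptgs1 and Ptgs2 counts in these immune cells check nothing about the labels. Each group held 1 sample. The labels give 1 tumour per condition, whereas figure legends of the study describe pooled tumours, and this was not settled.

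An MHC class I molecule is a heavy chain, such as those encoded by H2-K1 and H2-D1, bound to beta-2 microglobulin (B2m) and a short peptide, and it is read by CD8+ T cells. Peptides are cut from proteins by the proteasome, carried into the endoplasmic reticulum by the Tap1-Tap2 transporter and loaded with the help of tapasin (Tapbp). Psmb8, Psmb9 and Psmb10 encode the catalytic subunits of the immunoproteasome, which take the places of the constitutive subunits encoded by Psmb5, Psmb6 and Psmb7, and interferons are known to induce them. Nlrc5 encodes a transactivator of class I genes.

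Of the 10 members, 7 lay on chromosome 17. In the GENCODE annotation of GRCm38, H2-K1 spanned 33996017 to 34000347, Tapbp 33915899 to 33929292, Psmb9 34181987 to 34187764, Tap1 34187553 to 34197225, Psmb8 34197721 to 34201454, Tap2 34203527 to 34216321 and H2-D1 35262730 to 35267499. B2m lay on chromosome 2 from 122147686 to 122153083, Nlrc5 on chromosome 8 from 94434356 to 94527272 and Psmb10 on chromosome 8 from 105935735 to 105938444. All 10 are annotated as protein coding. Tap1 and Psmb9 overlap on opposite strands, and Zbtb22 overlaps Tapbp on the same strand. In the last 500 bases of transcripts, where 3′ tags fall, 0.151% of the 90-base words of H2-K1 occurred in another gene, and none of those of the other 9 members did.

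RefSeq promoter windows of GRCm38.p6 were at hand for 8 of the 10 members and not for Tap2 and Nlrc5. The 250 bases before the start were searched on both strands for 4 short motifs, GAAANNGAA (the core of an interferon-stimulated response element, ISRE), TTCNNNGAA (GAS, a STAT site), GGGNNTTCC (a kappaB half-palindrome) and TGACG (the core of the X2 box of class I promoters). RefSeq gives H2-K1 a pair of starts, of which the first is used. The windows of the 2 heavy chain genes are printed because they share a layout, that of B2m because its matches differ from theirs, and the stretch between Psmb9 and Tap1 because it serves both genes. Capitals mark the matches and the stretches read 5′ to 3′ on the strand of the gene, or of Tap1 for the shared one. They are H2-K1 at chr17:34000348-34000597 on the minus strand, H2-D1 at chr17:35262844-35263093 on the plus strand, B2m at chr2:122147437-122147686 on the plus strand and the shared stretch at chr17:34187331-34187555 on the plus strand.
H2-K1: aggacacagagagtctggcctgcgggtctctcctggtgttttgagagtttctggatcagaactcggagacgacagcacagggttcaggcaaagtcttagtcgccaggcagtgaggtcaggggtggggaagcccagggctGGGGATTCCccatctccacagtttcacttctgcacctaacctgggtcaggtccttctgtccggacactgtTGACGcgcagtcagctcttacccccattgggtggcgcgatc
H2-D1: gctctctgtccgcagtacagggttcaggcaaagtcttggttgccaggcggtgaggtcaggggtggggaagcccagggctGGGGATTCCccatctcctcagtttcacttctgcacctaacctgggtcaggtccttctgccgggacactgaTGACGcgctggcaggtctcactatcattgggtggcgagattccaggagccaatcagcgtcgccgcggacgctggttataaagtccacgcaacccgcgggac
B2m: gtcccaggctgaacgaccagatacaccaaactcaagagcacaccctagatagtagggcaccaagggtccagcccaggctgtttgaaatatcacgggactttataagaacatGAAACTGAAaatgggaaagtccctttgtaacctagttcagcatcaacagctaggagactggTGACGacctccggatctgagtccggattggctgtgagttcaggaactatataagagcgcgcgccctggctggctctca
Psmb9 to Tap1: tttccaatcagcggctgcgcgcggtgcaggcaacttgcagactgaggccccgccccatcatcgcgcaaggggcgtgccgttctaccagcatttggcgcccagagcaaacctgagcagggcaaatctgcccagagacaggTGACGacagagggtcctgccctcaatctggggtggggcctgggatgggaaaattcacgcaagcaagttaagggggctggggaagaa

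H2-K1 and H2-D1 each held a kappaB and an X2 core match, with 70 bases between the starts of the matches in both genes. Over the 75 bases from the first match to the end of the second, 71 were identical. B2m held an ISRE core 139 bases and an X2 core 78 bases before its start. The 225 bases between Psmb9 and Tap1 held 1 X2 core, which counts for both genes, and Psmb8 held a GAS match 97 bases before its start. No match was found in these windows of Psmb10 and Tapbp. Of all 32851 windows, 7.13% held the ISRE core, 7.02% GAS, 4.98% kappaB and 17.8% the X2 core, against 1, 1, 2 and 5 of the 8 members. A match is a description of letters and not evidence of binding.

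The 4 samples held 6836 to 10296 cells and 69332486 to 146829369 UMIs (unique molecular identifiers, 1 per captured transcript). A cell of NTT held a median of 7293 UMIs, and those of the other samples held medians of 12219 to 13280. Levels are given as CPM, the UMIs of a gene per 1000000 UMIs summed over the cells in question, with exact Poisson 95% intervals. These intervals cover counting error only, and since every group is 1 sample, nothing here was tested and no value has a spread between replicates. The comparison of RTT_ROSA26 with RTT, which both keep the cyclooxygenase genes, served as a yardstick, but it shares a sample with each of the other comparisons. The samples were multiplexed, and the 3 suffixes of the cell names were read as 3 loads of the pool. Free RNA of such a load would be common to the samples. Of the barcodes, 98 sequences occurred in more than 1 cell, 75 of them in more than 1 sample, and none in more than 1 cell of a load. By the mean log2 ratio of a list's genes to their mean over all types, each of the 17 types was led by the marker list of its name. The macrophage list led Macro and that of CCR7+ dendritic cells led DC3. The lead was small in Ctsk_Macro (0.325 for the macrophage list). By summed level, the macrophage list exceeded the monocyte list also in Monocyte_1 (6119 against 2493 CPM), Infl_Mono (5736 against 5366) and Monocyte_3 (2749 against 1327), and the cDC2 list in cDC2 (1922 against 1015). Markers of melanoma cells (Mlana, Dct, Pmel, Tyrp1, Sox10) summed to 0.431 CPM or less in each type, with 0 of 5 at 1 CPM.

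In all sorted cells, each member was highest in NTT, next in RTT_PTGS12KO, lower in RTT and lowest in RTT_ROSA26. H2-K1, the heavy chain that presents the ovalbumin peptide to OT-1 cells, stood at 3285 CPM in NTT against 875 in RTT, and at 1513 in RTT_PTGS12KO against 619 in RTT_ROSA26. Sets of 4 values below follow the order NTT, RTT, RTT_ROSA26, RTT_PTGS12KO. H2-D1, the other heavy chain, reached 3037, 1177, 887 and 1798 CPM, and B2m 5541, 2040, 1616 and 3271 CPM. The light chain and both heavy chains thus kept 1 order of samples, and the heavy chains were not equally spaced: H2-K1 was 3.75-fold higher in NTT than in RTT and H2-D1 2.58-fold. The number of H2-K1 UMIs per H2-D1 UMI was 1.08 (1.07 to 1.09) in NTT against 0.743 (0.737 to 0.749) in RTT, and 0.842 (0.837 to 0.846) in RTT_PTGS12KO against 0.698 (0.691 to 0.705) in RTT_ROSA26. Because both genes are counted in the same library, this ratio does not depend on the scaling, although its absolute value depends on how well each transcript is captured.

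Among the transporter and loading genes, Tap1 stood at 293, 51.9, 32.1 and 167 CPM. Tap2, its partner, stood at 158, 37.4, 27.7 and 96.9 CPM. Tapbp, which bridges the transporter and the empty heavy chain, stood at 362, 129, 96.5 and 242 CPM. Tap1 was 5.64-fold higher in NTT than in RTT (log2 2.50, interval 2.45 to 2.54) and 5.22-fold higher in RTT_PTGS12KO than in RTT_ROSA26 (log2 2.38, interval 2.33 to 2.44), the largest ratio among the 10 members in both comparisons in all cells.

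Among the immunoproteasome genes, Psmb8 stood at 1202, 343, 288 and 818 CPM. Psmb9 stood at 589, 141, 99.3 and 334 CPM, and Psmb10 at 366, 128, 99.98 and 249 CPM. Psmb9 differed more between samples, by 4.19-fold and 3.37-fold, than Psmb10, by 2.85-fold and 2.49-fold. Nlrc5, the transactivator, was counted at 36.1 CPM in NTT (34.7 to 37.5) against 8.08 in RTT (7.57 to 8.61), and at 20.6 in RTT_PTGS12KO (19.8 to 21.3) against 5.08 in RTT_ROSA26 (4.67 to 5.52).

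**Figure D1:**
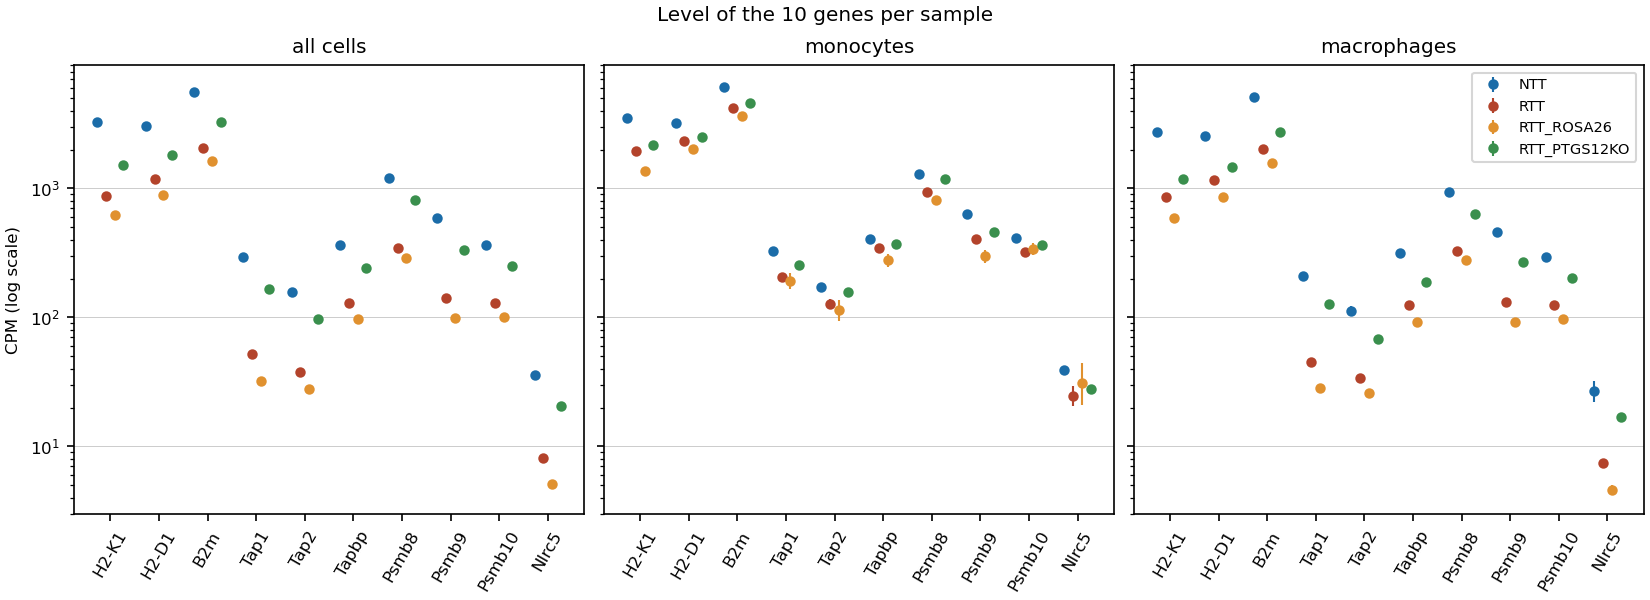
Level of each of the 10 genes in the 4 samples, in CPM on a log axis, in all cells, in monocytes and in macrophages; points are 1 sample each and bars are exact Poisson 95% intervals, mostly smaller than the points. In all cells Tap1 runs from 293 CPM in NTT to 32.1 in RTT_ROSA26, whereas in monocytes the 4 samples lie closer together, from 328 to 193.

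All 10 members were at least 2-fold higher in NTT than in RTT, with a median log2 ratio of CPM of 1.86 (range 1.37 to 2.50), where 7.44% of all 6999 genes with at least 10 CPM passed the same fold and the median gene stood at -0.09. All 10 were also at least 2-fold higher in RTT_PTGS12KO than in RTT_ROSA26, with a median of 1.42 (range 1.02 to 2.38), where 3.68% of all genes passed and the median gene stood at -0.13. In the yardstick comparison, all 10 were lower in RTT_ROSA26 than in RTT, by a median log2 ratio of -0.43 (range -0.69 to -0.25), and none by 2-fold. Of all genes 37.9% were lower there. The median ratios in all cells were thus larger than between these resistant tumours, and the direction of the yardstick placed RTT_ROSA26, the reference of the knockout, below RTT.

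The samples differed in what cells they held, and the sum over all cells carries this. Monocytes (the types Monocyte_1, Infl_Mono and Monocyte_3) were 80.1% of the cells of NTT against 6.55% of RTT, and 39.0% of RTT_PTGS12KO against 2.11% of RTT_ROSA26. Macrophages (TAM_C1q, TAM_Spp1, TAM_cycling, TAM_H2Ab1 and Ctsk_Macro) were 3.73%, 84.5%, 87.7% and 50.6% in the order of the samples. Macro, also led by the macrophage list, was left out of this class. With each cell type that had at least 20 cells in both samples given equal weight, the median log2 ratio was 0.79 in place of 1.86 for NTT against RTT, and 1 of the 10 members was at least 2-fold higher, where 2.97% of all genes were. For RTT_PTGS12KO against RTT_ROSA26 it was 1.13 in place of 1.42, with 6 members at least 2-fold higher, where 2.2% of all genes were. Cells of NTT also held fewer UMIs, and when mean UMIs per cell were compared in place of CPM the NTT median was 1.05 and 6 members were at least 2-fold higher, where 3.79% of all genes were. A sum of UMIs does not tell more RNA per cell from more cells that hold it, so the comparison was repeated within classes and types.

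Within monocytes, cells that enter tissue from the blood and can become macrophages, the members differed by less than 2-fold in CPM. H2-K1 stood at 3522 CPM in NTT (3506 to 3538) against 1934 in RTT (1895 to 1973), and at 2157 in RTT_PTGS12KO (2143 to 2171) against 1360 in RTT_ROSA26 (1289 to 1434). It was the member with the highest ratio in both comparisons, 1.82-fold for NTT against RTT and 1.59-fold for the knockout. Psmb8 stood at 1289, 937, 817 and 1188 CPM, and Tap1 at 328, 205, 193 and 254 CPM. Tapbp differed least between NTT and RTT, at 404, 347, 277 and 367 CPM. Nlrc5 stood at 39.2 CPM in NTT (37.5 to 40.9) against 24.7 in RTT (20.5 to 29.5), and at 28.1 in RTT_PTGS12KO (26.5 to 29.7) against 30.9 in RTT_ROSA26 (21.0 to 43.9), and the intervals of the 3 resistant samples overlapped. All 10 members were higher in NTT than in RTT, with a median log2 ratio of 0.49 (range 0.22 to 0.87), where 55.1% of all genes were higher. None was 2-fold higher, where 1.85% of all genes were. With mean UMIs per cell in place of CPM the median was 0.22, and Tapbp changed sign (-0.0489). For RTT_PTGS12KO against RTT_ROSA26, 9 of 10 were higher, with a median of 0.40 (range -0.14 to 0.67), where 49.3% of all genes were higher. None was 2-fold higher there either, where 1.83% of all genes were. Mean UMIs per cell in place of CPM gave a median of 0.98. By that measure 4 members were at least 2-fold higher, where 13.6% of all genes were. RTT_ROSA26 held only 144 monocytes and RTT 522, against 6619 in NTT and 4015 in RTT_PTGS12KO. For RTT_ROSA26 against RTT, 8 of 10 members were lower in monocytes, with a median of -0.20, where 48.7% of all genes were lower.

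The way cells were classed moved these values. When each cell named monocyte or macrophage was placed by its own UMIs of the 2 marker lists instead of by its name, 3715 cells of NTT counted as macrophages in place of 308, and the monocytes of RTT_ROSA26 numbered 335 in place of 144. The median log2 ratio in monocytes was then 0.96 for NTT against RTT, with 4 members at least 2-fold higher, where 5.74% of all genes passed. It was 1.62 for RTT_PTGS12KO against RTT_ROSA26, with all 10 at least 2-fold higher, where 6.53% of all genes passed. In the yardstick comparison of RTT_ROSA26 with RTT it was -0.96 with these classes. With these classes, monocytes of the knockout and of its control thus lay far apart. The classes do not hold the same cells as the names. The macrophage list exceeds the monocyte list by summed level even in the named monocyte types, and the 335 cells of RTT_ROSA26 include cells named macrophages. In RTT_PTGS12KO, 1823 cells counted as monocytes in place of 4015. The comparison therefore cannot decide how far apart the named monocytes lie.

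Within macrophages the spread was wide again. H2-K1 stood at 2741 CPM in NTT (2690 to 2792) against 850.4 in RTT (845 to 856), and at 1187 in RTT_PTGS12KO (1179 to 1194) against 589 in RTT_ROSA26 (584 to 594). Tap1 stood at 208, 45.0, 28.5 and 126 CPM, and was 4.63-fold higher in NTT than in RTT and 4.42-fold higher in RTT_PTGS12KO than in RTT_ROSA26. Psmb9 stood at 462, 131, 92.6 and 267 CPM. B2m was 2.55-fold and 1.73-fold higher in these comparisons and H2-D1 2.16-fold and 1.73-fold, so these chains of the molecule differed less than Tap1. All 10 members were at least 2-fold higher in NTT than in RTT, with a median log2 ratio of 1.59 (range 1.11 to 2.21), where 5.35% of all genes passed. For RTT_PTGS12KO against RTT_ROSA26, 8 of 10 passed, all but H2-D1 and B2m, with a median of 1.12 (range 0.79 to 2.15), where 2.37% of all genes passed. With 10 CPM added to each value 4 passed in place of 8, where 1.61% of all genes passed. The 4 lost were H2-K1, Tapbp and Psmb10, which stood at 2.01-fold, 2.04-fold and 2.06-fold without it, and Nlrc5, whose 3.70-fold ratio rested on 4.61 CPM in the control. All 10 were lower in RTT_ROSA26 than in RTT, with a median of -0.44, where 37.6% of all genes were lower. The 308 macrophages of NTT were mostly TAM_H2Ab1 (192) and TAM_cycling (79), whereas those of RTT were mostly TAM_C1q (3412) and TAM_Spp1 (2057), so the classes are not made of the same types.

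NK and T cells, known sources of interferon-gamma, also differed between the samples. NTT held 802 of them against 14 in RTT, and RTT_PTGS12KO held 351 against 28 in RTT_ROSA26. Ifng, which encodes interferon-gamma, was counted in all cells at 64.6 CPM in NTT against 0.608 in RTT, and at 72.4 in RTT_PTGS12KO against 0.653 in RTT_ROSA26. The part of these cells in the levels of the members was not tested.

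Taken type by type, NTT and RTT could be compared in 8 types. In TAM_cycling, the macrophages with cell cycle genes, all 10 members were at least 2-fold higher in NTT (median log2 1.36), where 4.85% of all genes passed. H2-K1 stood at 2177 CPM there in NTT and 767 in RTT. Neutrophils (Neutro) had 6 members past 2-fold (median 1.08), where 5.31% of all genes passed, and cDC2, dendritic cells known for CD4+ T cell priming, had 4 (median 0.98), where 5.05% passed. Infl_Mono had 1 (H2-K1, median 0.78), where 3.18% of genes passed. Macro had 1 (Tap2, median 0.66), where 9.51% passed, and TAM_Spp1 had 2 (Tap1 and Nlrc5, median 0.75), where 8.07% passed. NTT held only 20 TAM_Spp1 and 21 Macro cells, and Nlrc5 in TAM_Spp1 rested on 3 UMIs in NTT, with an interval of its log2 ratio from -0.91 to 2.96 that spans 0. Monocyte_1 had 0 (median 0.40), where 2.37% of genes passed, and TAM_H2Ab1 had 0 (median 0.17), where 3.81% passed. In TAM_H2Ab1, macrophages with high MHC class II, Psmb8 stood at 935 CPM in NTT (894 to 978) and 1008 in RTT (943 to 1078), and Tap1 at 228 (208 to 250) and 227 (196 to 261). The intervals overlapped for both genes, so no difference in them was detectable at this depth, while H2-K1 stood at 3463 (3383 to 3545) and 2578 (2472 to 2687) in the same cells.

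RTT_PTGS12KO and RTT_ROSA26 could be compared in 11 types. Ctsk_Macro, macrophages with the protease gene Ctsk, had 9 of the 9 members with at least 10 CPM past 2-fold (median over the 10 of 1.98), where 4.67% of all genes passed. There Tap1 stood at 186 CPM in the knockout sample and 28.7 in the control, and Psmb8 at 956 and 235. TAM_cycling had 8 (median 1.23), where 2.77% of genes passed, cDC2 8 (median 1.21), where 4.78% passed, and neutrophils 8 (median 1.38), where 4.55% passed. In these types the control also lay below RTT. The medians for RTT_ROSA26 against RTT were -0.80 in Ctsk_Macro, -0.46 in TAM_cycling, -0.57 in cDC2 and -0.53 in neutrophils. Macro had 5 (median 1.01), where 5.78% passed. TAM_C1q, the most frequent macrophages of the control, had 1 of 9 (Tap1, median 0.64), where 1.41% of genes passed, and TAM_Spp1 had 2 of 9 (Tap1 and Psmb9, median 0.84), where 1.55% passed. Infl_Mono had 1 (Tap2, median 0.84), where 4.09% passed, NK cells 1 (Tap1, median 0.42), where 4.7% passed, and Monocyte_1 0 (median 0.13), where 3.61% passed. In Monocyte_1, Tap1 stood at 250 CPM in the knockout sample (245 to 256) and 245 in the control (199 to 298, 54 cells), and Psmb8 at 1180 (1169 to 1192) and 1077 (979 to 1182).

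**Figure D2:**
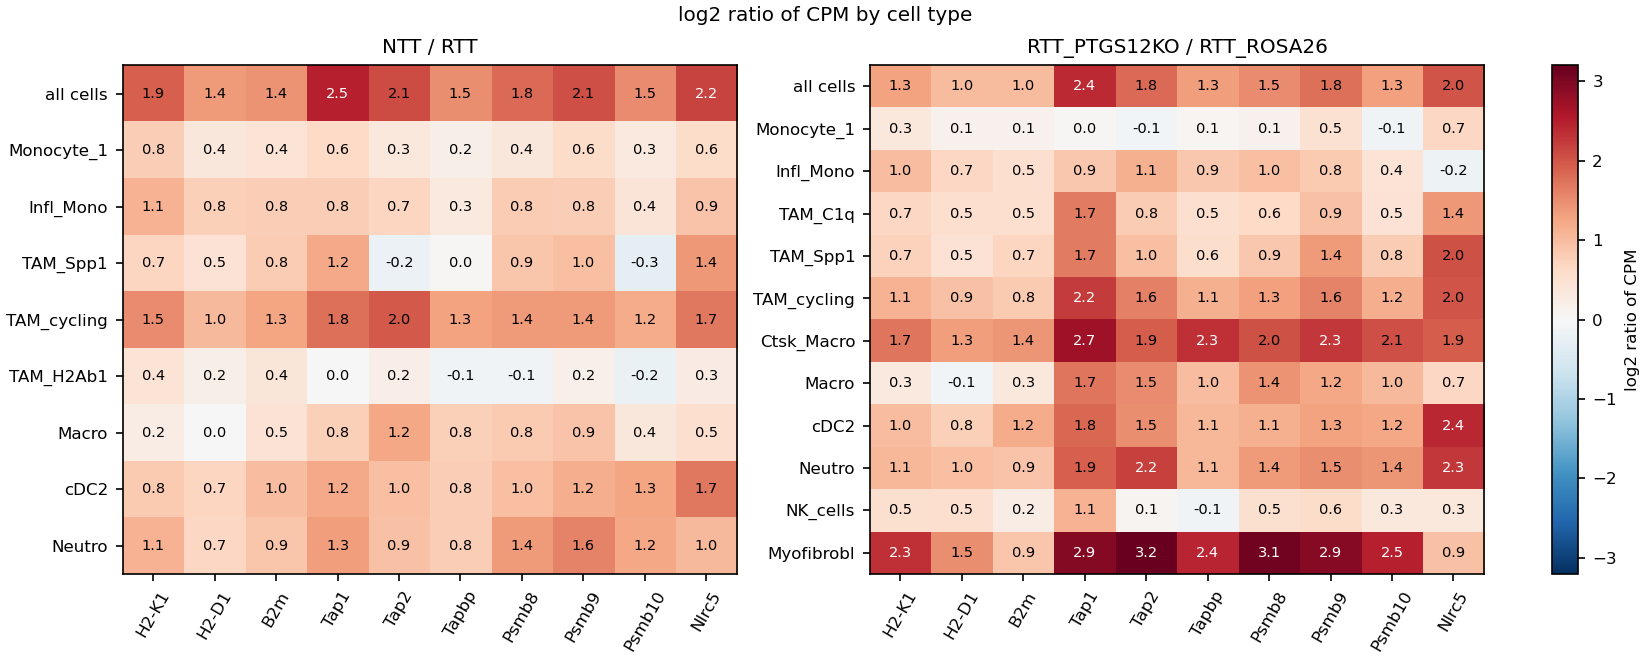
log2 ratio of CPM for each of the 10 genes (columns) in all cells and in each cell type with at least 20 cells in both samples (rows), NTT over RTT on the left and RTT_PTGS12KO over RTT_ROSA26 on the right; red is higher in the first sample. Monocyte_1 and TAM_H2Ab1 are pale, with medians of 0.40 and 0.17 on the left, while TAM_cycling, neutrophils and Ctsk_Macro are red.

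The highest ratios of the knockout comparison were in Myofibrobl, where 7 of the 8 members with at least 10 CPM passed 2-fold (median over the 10 of 2.46) and 4.05% of all genes did. These cells were led by fibroblast markers and held little Ptprc, the gene of CD45, at 15.9 CPM in RTT, 17.4 in RTT_ROSA26 and 31.0 in RTT_PTGS12KO, against 330 to 727 CPM in all cells of the 4 samples, so they go against the CD45+ label of the sort. They are in neither the monocyte nor the macrophage class. Whether they came from the host or from the injected cancer cells was not tested. H2-K1 stood at 97.3 CPM in RTT (249 cells), 70.9 in RTT_ROSA26 (59 cells) and 361 in RTT_PTGS12KO (37 cells), and Psmb8 at 25.8, 17.8 and 153 CPM. They were the lowest type for both genes in each of the 3 samples. B2m was less far down, at 644, 664 and 1233 CPM. Tap1 stood at 6.16 CPM in RTT (4.63 to 8.03) and 3.73 in RTT_ROSA26 (1.71 to 7.09). These levels bound what free RNA common to a load can have added to Tap1 in this type.

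Across types, the order of levels depended on the gene. In NTT, H2-K1 was highest in Monocyte_3 (3561 CPM, 3209 to 3940), Monocyte_1 (3547, 3528 to 3565), DC3 (3479, 3335 to 3627) and TAM_H2Ab1 (3463, 3383 to 3545), whose intervals overlapped, and lowest in TAM_Spp1 (1300, 1144 to 1470), cDC1 (1493, 1384 to 1608) and T_CD8 (1515, 1455 to 1578). In RTT, the levels ran from Macro (2756 CPM) and TAM_H2Ab1 (2578) over Monocyte_1 (2053) and Infl_Mono (1592) down to TAM_C1q (871), TAM_Spp1 (803), TAM_cycling (767) and Myofibrobl (97.3), a type with only 6 cells in NTT that was not ranked there. In RTT_ROSA26, Macro (2164) and Monocyte_1 (1702) were on top and Myofibrobl (70.9) at the bottom again. In RTT_PTGS12KO, Monocyte_3 (3039) and Macro (2693) were on top and Myofibrobl (361) at the bottom. Infl_Mono (2163) and Monocyte_1 (2153) had overlapping intervals there, and TAM_cycling (1162), TAM_C1q (1038) and TAM_Spp1 (1002) stood far below them.

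For Psmb8 the top of the order was held by dendritic cells in NTT and RTT_PTGS12KO, where they had enough cells. Among the types with at least 20 cells, Monocyte_1 (1010 CPM, 978 to 1044) and TAM_H2Ab1 (1008, 943 to 1078) led in RTT with overlapping intervals, and Monocyte_1 (1077) in RTT_ROSA26. cDC1s, dendritic cells specialised in presenting taken-up antigen on class I, had 1817 CPM in NTT (1697 to 1944, 32 cells) and 2019 in RTT_PTGS12KO (1901 to 2142, 37 cells), and DC3, which was led by CCR7+ dendritic cell markers, had 1490 (1397 to 1588) and 1415 (1331 to 1503). Monocyte_1 had 1296 and 1180 CPM. Psmb9 had the same top pair, at 1101 CPM in cDC1 and 968 in DC3 of NTT and 945 and 681 in RTT_PTGS12KO. Yet cDC1s were low for B2m, at 2405 CPM in NTT and 2172 in RTT_PTGS12KO against 6023 and 4544 in Monocyte_1, and low for Psmb10, at 178 and 200 against 412 and 360. RTT held 7 cDC1s and 12 DC3 cells and RTT_ROSA26 10 and 14, too few for a level.

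In NTT, Infl_Mono and Monocyte_1 differed more in Isg15 than in the members. Isg15, an interferon-stimulated gene, stood at 1883 CPM in Infl_Mono and 622 in Monocyte_1 of NTT. In the same cells H2-K1 stood at 3439 and 3547 CPM, B2m at 6324 and 6023, Psmb8 at 1268 and 1296, and Tap1 at 344 and 323. Nlrc5 stood at 48.9 (45.0 to 53.0) and 36.3 (34.5 to 38.3). In RTT, Infl_Mono lay below Monocyte_1 for H2-K1 (1592 against 2053 CPM) and Psmb8 (727 against 1010).

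The balance of RNA for the 2 kinds of catalytic subunit was described within each library as the UMIs of Psmb8, Psmb9 and Psmb10 per UMI of Psmb5, Psmb6 and Psmb7. It does not show which subunits the proteasomes held. Its absolute value, and so its position relative to 1, depends on how well each transcript is captured. Psmb5, the constitutive counterpart of Psmb8, stood at 214, 199, 233 and 212 CPM in all cells. Psmb6 stood at 247, 211, 257 and 249.6 CPM and Psmb7 at 112, 90.8, 115 and 113 CPM, so none of the 3 followed the order of the members. In all cells the ratio was 3.77 (3.73 to 3.81) in NTT against 1.22 (1.21 to 1.24) in RTT, and 2.44 (2.42 to 2.46) in RTT_PTGS12KO against 0.807 (0.798 to 0.816) in RTT_ROSA26. In macrophages it was 2.75, 1.16, 0.763 and 1.93, and in monocytes 3.99 (3.94 to 4.04), 3.58 (3.41 to 3.75), 2.64 (2.39 to 2.92) and 3.34 (3.30 to 3.39). Macrophages of RTT_ROSA26 thus held fewer UMIs of the inducible than of the constitutive genes, while monocytes of each sample held more of the inducible. Placed by marker UMIs, which took in cells named macrophages, monocytes of RTT_ROSA26 had a ratio of 1.37 in place of 2.64.

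By type, DC3 had the highest ratio, 5.86 (5.18 to 6.65) in NTT and 5.84 (5.16 to 6.63) in RTT_PTGS12KO, which did not differ beyond counting error. TAM_H2Ab1 was level over 3 samples, at 2.98 in NTT, 2.94 in RTT and 2.75 in RTT_PTGS12KO. Ctsk_Macro ran from 0.527 in RTT_ROSA26 over 1.13 in RTT to 2.69 in RTT_PTGS12KO, and neutrophils from 1.03 over 1.92 to 3.24, with 4.11 in NTT. Myofibrobl stayed below 1 throughout, at 0.127 in RTT, 0.0589 in RTT_ROSA26 and 0.553 in RTT_PTGS12KO. In cDC1s the 3 pairs went apart: Psmb8 per Psmb5 was 6.52 (5.41 to 7.90) in NTT and Psmb9 per Psmb6 3.40 (2.83 to 4.10), but Psmb10 per Psmb7 was 0.943 (0.690 to 1.29), where Monocyte_1 had 5.84, 2.40 and 3.59. In cDC1s of RTT_PTGS12KO the 3 pairs stood at 7.90, 3.02 and 1.32.

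**Figure D3:**
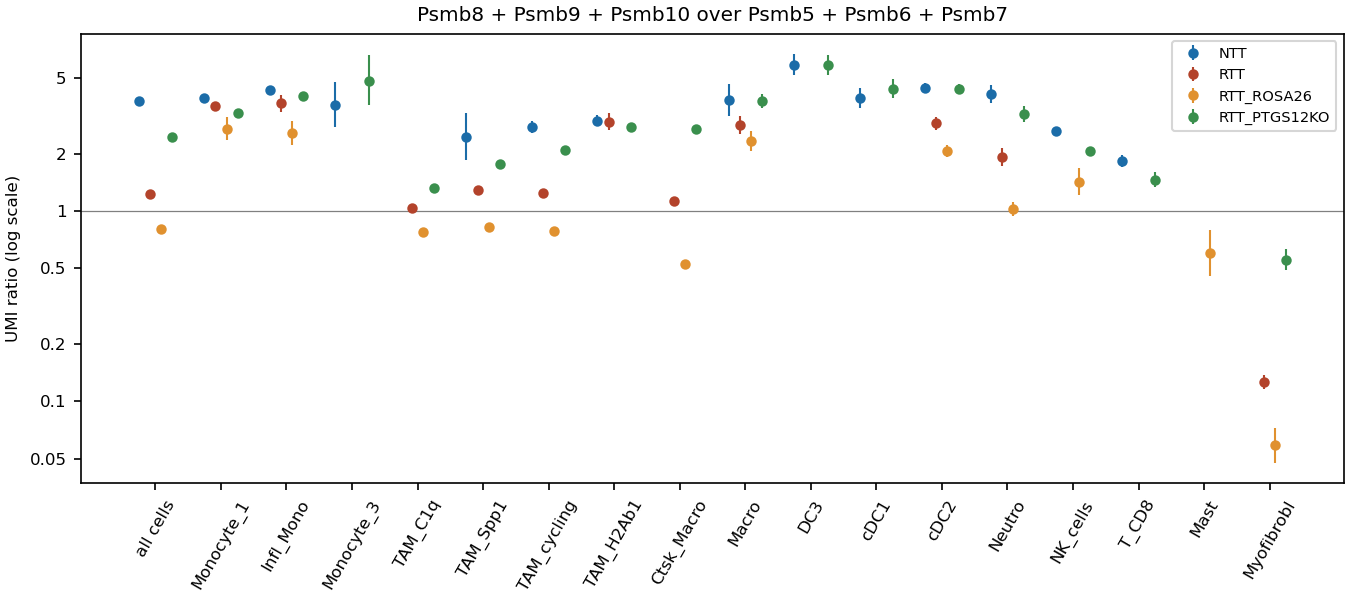
UMIs of the immunoproteasome genes Psmb8, Psmb9 and Psmb10 per UMI of the constitutive genes Psmb5, Psmb6 and Psmb7 (log axis) in all cells and in each cell type with at least 20 cells, 1 point per sample with its exact 95% interval; the line marks 1. In RTT_ROSA26, TAM_C1q, TAM_Spp1, TAM_cycling and Ctsk_Macro lie below 1, as at 0.777 in TAM_C1q, while Macro lies at 2.33, and Myofibrobl lie lowest, at 0.0589.

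Single cells were compared after each was thinned to 5000 UMIs, which left out shallower cells, for example 1356 of 6619 monocytes of NTT and 50 of 144 of RTT_ROSA26. A monocyte held a median of 17, 9, 6 and 11 UMIs of H2-K1 in the 4 samples. A macrophage held 14, 4, 3 and 5. The range from the 25th to the 75th percentile of the macrophages of NTT (9 to 19) did not overlap that of RTT (2 to 6), while that of RTT_PTGS12KO (3 to 8) overlapped that of RTT_ROSA26 (1 to 4). Psmb8 had medians of 6, 4, 4 and 6 in monocytes and 4.5, 1, 1 and 2 in macrophages. For Psmb8 in macrophages these ranges were 3 to 6.75, 0 to 2, 0 to 2 and 1 to 4, so that of NTT did not overlap that of RTT and that of RTT_PTGS12KO overlapped that of RTT_ROSA26. Cells of a sample are not replicates, and these values only describe their spread.

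**Figure D4:**
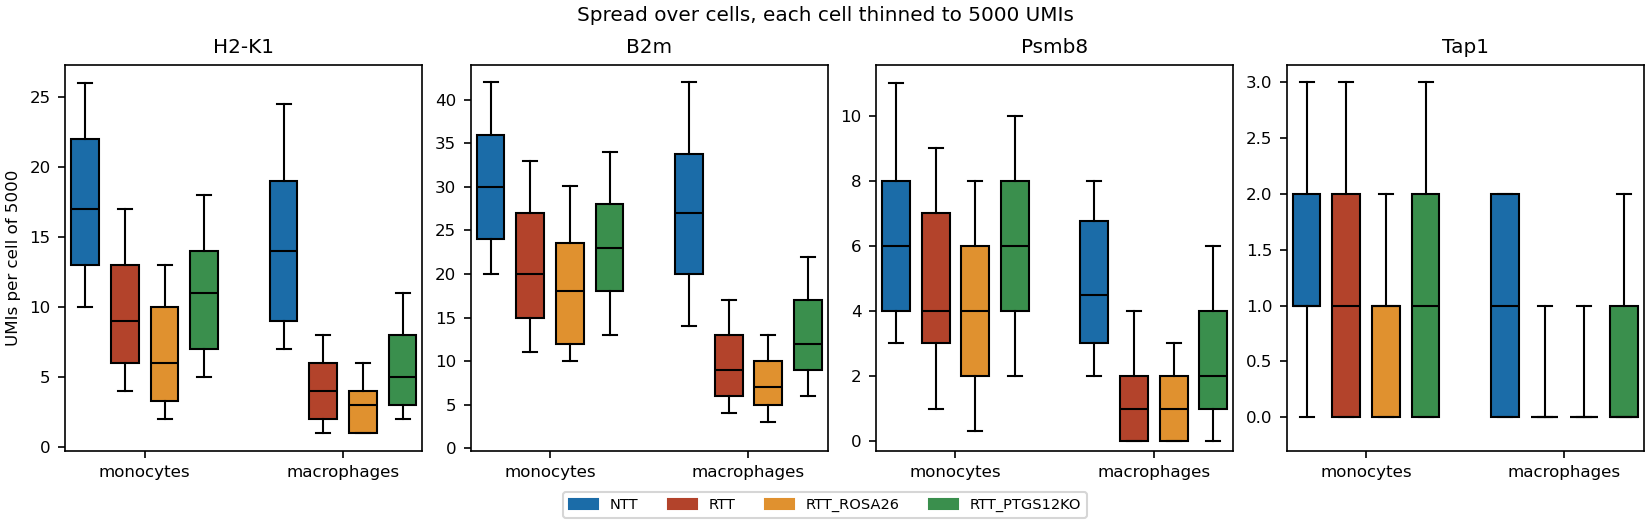
UMIs of 4 member genes per cell after thinning each cell to 5000 UMIs, in monocytes and macrophages of the 4 samples; the line is the median, boxes run from the 25th to the 75th and whiskers from the 10th to the 90th percentile of cells. The H2-K1 boxes of macrophages sit at medians of 14 in NTT and 3 to 5 in the others, while those of monocytes sit at 6 to 17.

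Other genes of the pathway came from a list of 38. In all cells 34 of them had at least 10 CPM for NTT against RTT, with a median log2 ratio of 0.70. Of these 13 were at least 2-fold higher, where 7.44% of all genes were. For RTT_PTGS12KO against RTT_ROSA26, 9 of 32 were at least 2-fold higher, with a median of 0.31, where 3.68% of all genes were. The members' medians were 1.86 and 1.42. The fixed core of the proteasome differed less: 0 of 11 core subunit genes and 0 of 3 constitutive genes passed in either comparison, with core medians of 0.43 and 0.20. Psme1 and Psme2, which encode the interferon-inducible cap of the proteasome, stood with the members, Psme1 at 1079, 368, 306 and 737 CPM and Psme2 at 761, 227, 192 and 554 CPM. Of the 4 loading genes, none of the general chaperones Calr, Canx and Pdia3 passed, and Tapbpl, a relative of tapasin, did.

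The non-classical class I genes held the largest ratios. Of 9, 7 had at least 10 CPM for NTT against RTT and all 7 were at least 2-fold higher, where 7.44% of all genes were. For the knockout 4 of 5 were, where 3.68% of all genes were. H2-Q7 stood at 616, 37.2, 21.1 and 179.7 CPM, and H2-Q6 at 280, 10.6, 6.16 and 57.5 CPM. H2-T22 stood at 350.5, 42.3, 28.1 and 119.5 CPM, and H2-T24, under the minimum in both comparisons, at 10.5, 1.41, 0.826 and 4.28 CPM. Near-identical copies make the levels of these genes uncertain, since 26.9% of the 3′ words of H2-Q6, 26.4% of H2-T22 and 4.73% of H2-Q7 occurred in another gene. Cd1d1, which presents lipids, stood at 44.5, 3.62, 2.92 and 12.7 CPM. In monocytes, where no member was 2-fold higher in CPM, H2-Q6 and H2-Q7 differed by log2 2.72 and 1.88 for NTT against RTT and 1.77 and 1.62 for the knockout. Among regulators, Irf1, an interferon-inducible transcription factor, stood at 346, 104, 32.5 and 242 CPM. It also differed between the resistant tumours of the yardstick, by a log2 ratio of -1.68 for RTT_ROSA26 against RTT. Rfxap, of the RFX complex that binds class I promoters, stood at 29.0, 38.1, 35.4 and 34.1 CPM and did not pass.

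**Figure D5:**
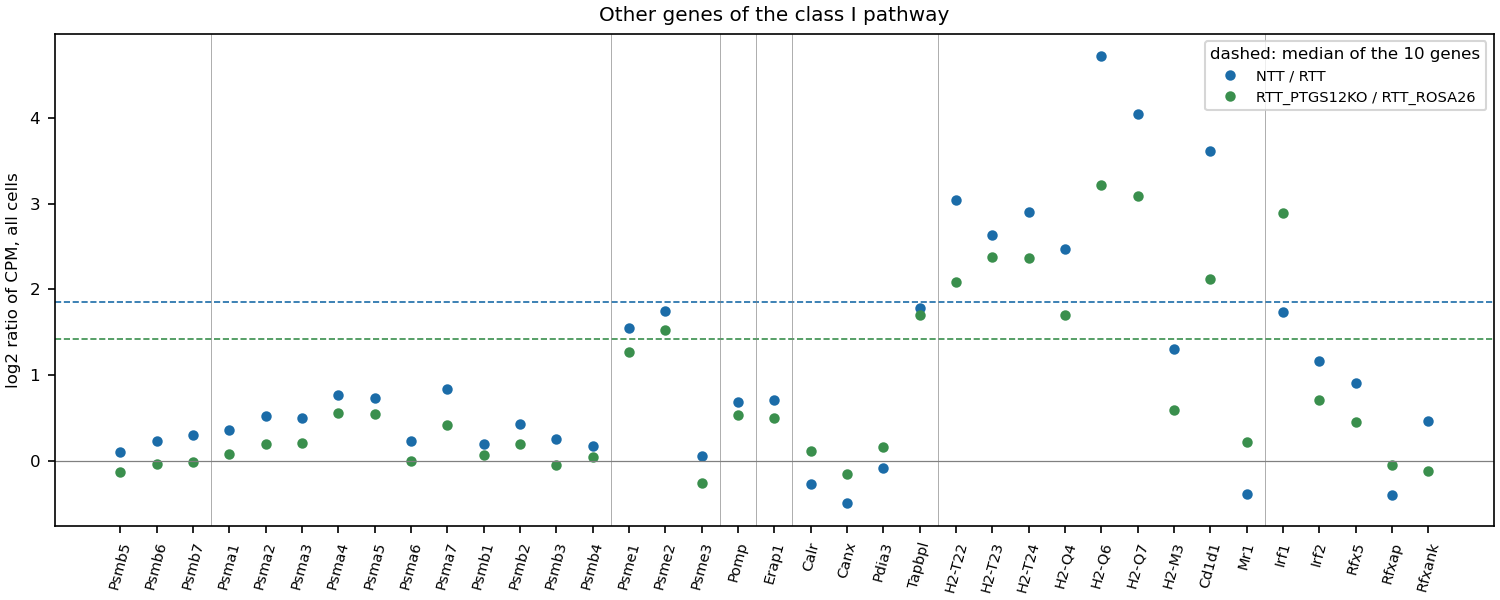
log2 ratio of CPM in all cells for 37 of the 38 other genes of the class I pathway, ordered by role with vertical lines between roles (constitutive subunits, core subunits, activators, maturation, trimming, loading, non-classical, regulators); blue points are NTT over RTT and green points RTT_PTGS12KO over RTT_ROSA26, and dashed lines mark the medians of the 10 members, 1.86 and 1.42. Core subunits lie below 0.84 in both comparisons, and the non-classical genes reach 4.73.

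Finally, the members were compared as patterns over the 52 sums of a cell type and a sample with at least 20 cells. Pearson correlations of log2(CPM + 1) between members ran from 0.811 (Nlrc5 and Psmb8) to 0.981 (Psmb8 and Psmb9), with 0.977 for H2-K1 and H2-D1 and 0.973 for the neighbours Tap1 and Psmb9. These 52 points share libraries and depth and are no independent replicates. Of 7150 genes, the 8 others most like the members' mean pattern included H2-T23 (0.962), Dtx3l (0.952), Parp9 (0.939), Nmi (0.939), Psme1 (0.934), Phf11b (0.932) and Samhd1 (0.928). Of these, H2-T23 and Psme1 were on the pathway list, and 13.4% of the 3′ words of H2-T23 occurred in another gene.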

How the data were processed

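Per the labels and the study's methods, tumours were digested, live CD45+ cells sorted, and the 4 samples tagged with multiplexing oligos, which also remove doublets between samples. The submitters' processing notes name Cell Ranger, Seurat 4.3.0 and mm10. The authors deposited raw UMI counts per gene and cell, with a sample and cell type name per cell, and kept cells with over 1000 genes, below 15% mitochondrial UMIs and below 40% ribosomal ones. Their type names were used, and no further doublets were called. Members and lists were chosen with earlier results of these data known. Named besides the members are Psmb5, Psmb6, Psmb7, Psme1, Psme2, the 6 other listed genes with the largest ratio in all cells, and the 8 genes most alike, except 1 gene that is not reported here. Genes named to describe cells or as examples of the list were chosen after their values were seen.

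UMIs were summed per sample and cell type and divided by the total. Ratios have exact conditional binomial 95% intervals, fold counts used genes whose mean over both samples reached 10 CPM, and sums under 3 UMIs were set to 3. NumPy 2.4.6, SciPy 1.17.1, pandas 2.3.3, matplotlib 3.10.9 and edgeR 4.0.16 (TMM factors only) were used, and the steps were tested on simulated data.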

Additional observations from a re-analysis of the deposited data

Results flagged for a closer look

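In 2 cases a member lay on the other side of 0 in 1 cell type than in most, with both intervals clear of 0. Psmb10 was lower in NTT than in RTT in TAM_H2Ab1, by a log2 ratio of -0.223 (327 against 382 CPM), while its interval lay above 0 in 6 of the 8 types compared. H2-D1 was lower in RTT_PTGS12KO than in RTT_ROSA26 in Macro, by a log2 ratio of -0.0838 (2577 against 2731 CPM), while its interval lay above 0 in 10 of the 11 types. The intervals cover counting error only, and the difference between types was not tested.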

How the results depend on the processing

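No paired analysis was possible because the design has 1 sample in every group and no result comes from a test. The values below are medians of the log2 ratios of the 10 members unless said otherwise, and all kept their sign. For NTT against RTT in all cells the reported 1.86 became 1.61 with CPM + 10, 2.01 with TMM factors, 1.88 without the cells of most UMIs, 0.79 with cell types weighted equally (1 member at least 2-fold higher in place of 10) and 1.05 with mean UMIs per cell (6 members), the last chosen after seeing the data. In macrophages 1.59 became 1.41, 1.87 with classes from marker UMIs and 1.46 per cell. In monocytes 0.49 became 0.52 with TMM, 0.96 with marker classes (4 members in place of 0) and 0.22 per cell, where Tapbp alone changed sign (-0.0489). For RTT_PTGS12KO against RTT_ROSA26 in all cells 1.42 became 1.26 with CPM + 10, 1.55 with TMM, 1.13 with equal weights (6 members in place of 10) and 1.24 per cell. In macrophages 1.12 became 0.99 with CPM + 10 (4 members in place of 8), 1.22 with TMM, 1.32 with marker classes and 1.18 per cell. In monocytes 0.40 became 1.62 with marker classes (10 members in place of 0) and 0.98 per cell (4 members, where 13.6% of all genes passed). For RTT_ROSA26 against RTT, all cells moved from -0.43 to -0.36 with CPM + 10 and -0.29 per cell, macrophages from -0.44 to -0.37 with CPM + 10, -0.54 with TMM, -0.50 with marker classes and -0.25 per cell, and monocytes from -0.20 to -0.96 with marker classes and -0.63 per cell.

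The proteasome ratio with marker classes was 4.26 in monocytes of NTT against 2.66 of RTT, and 3.66 of RTT_PTGS12KO against 1.37 of RTT_ROSA26, and 3.65, 1.24 and 2.21 in macrophages of NTT, RTT and RTT_PTGS12KO. Without the cells of most UMIs it was 3.86 and 2.46 in all cells and 4.07 and 3.40 in monocytes of NTT and RTT_PTGS12KO, and with the stricter filter 3.72 and 2.42 in all cells. The cause of these shifts was not tested. Taken alone, the 3 loads read from the cell names gave ratios that spanned a median of 0.05 log2 units per member in all cells for NTT against RTT and for the knockout, and up to 1.15 for Nlrc5 in monocytes of the knockout. No sample could be left out, since that would empty its group. Dropping the 10 CPM minimum moved no count by over 1.5 times.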
